A study of Mus musculus with 16 samples.

Results

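The genes described are the 10 core cyclins and cyclin-dependent kinases of the cell cycle, namely Ccna2, Ccnb1, Ccnb2, Ccnd1, Ccnd2, Ccnd3, Ccne1, Ccne2, Cdk1 and Cdk2, taken by name from 21887 protein-coding mouse genes on chromosomes 1 to 19, X and Y. Their E2f4 peaks and the extent of the histone marks H3K4me2 and H3K27ac around them were read from chromatin immunoprecipitation and sequencing (ChIP-seq) of liver taken 40 h after partial hepatectomy, an operation that removes most of the organ and sends the remaining hepatocytes back into the cell cycle. Hepatocytes had been isolated according to the protocol, and markers of other liver cells are described below. All mice were at postnatal day 90, of a mixed C57/B6 and 129 strain, and carried Arid1a Fl/Fl, that is, floxed alleles of the SWI/SNF chromatin remodelling subunit Arid1a. The WT group had no Cre, and the KO group also carried Alb-cre, a recombinase driven by the albumin promoter, which acts in hepatocytes and leaves Arid1a in the other cells of the liver. E2f4 had 2 libraries per genotype and each mark had 1 library per genotype. The labels do not say whether the replicates came from separate animals. Any spread between them may therefore be technical, and no difference in a mark has a replicate check. The design asks how E2f4 occupancy and both marks differ between the genotypes.

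Cyclins switch on cyclin-dependent kinases by binding them, and each kinase acts with particular cyclins at a particular step. The D cyclins answer growth signals in G1 and start the phosphorylation of the RB family of pocket proteins, the E cyclins drive entry into S phase through Cdk2, cyclin A2 works with Cdk2 and Cdk1 during S and G2, and the B cyclins drive mitosis through Cdk1. E2f4 is an E2F family member best known as part of repressing complexes with the pocket proteins, including the DREAM complex, which binds the promoters of cell cycle genes. H3K4me2 is found at promoters and enhancers, and H3K27ac at the active ones among them.

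The promoters that carried E2f4 peaks, with that of Cdk2 as a promoter without one, are shown so that the position of each peak summit can be read against the sequence. They are the RefSeq promoters of build GRCm38.p6, the coordinates of mm10, each of 300 bases on the strand of the gene from 250 before the start site, which is base 251. Capitals mark the searched strings on either strand: GCGGGAA as a first form of the E2F core, GCGCGAA as a second form, GCGCCAA as the third and GCGGCAA as the fourth, TTTGAA as the cell cycle homology region, and the CCAAT box. The table held promoters for 6 of the 10 genes and none for Ccna2, Ccnd1, Ccnd2 and Ccne2. All 5 lie on the minus strand.
Cdk1, chr10:69352863-69353162: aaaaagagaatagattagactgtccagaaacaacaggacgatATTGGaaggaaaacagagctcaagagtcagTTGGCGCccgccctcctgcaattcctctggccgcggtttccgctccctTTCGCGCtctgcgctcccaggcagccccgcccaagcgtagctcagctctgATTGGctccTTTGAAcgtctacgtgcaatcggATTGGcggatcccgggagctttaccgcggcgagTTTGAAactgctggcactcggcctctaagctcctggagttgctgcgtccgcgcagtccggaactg
Ccnb2, chr9:70421505-70421804: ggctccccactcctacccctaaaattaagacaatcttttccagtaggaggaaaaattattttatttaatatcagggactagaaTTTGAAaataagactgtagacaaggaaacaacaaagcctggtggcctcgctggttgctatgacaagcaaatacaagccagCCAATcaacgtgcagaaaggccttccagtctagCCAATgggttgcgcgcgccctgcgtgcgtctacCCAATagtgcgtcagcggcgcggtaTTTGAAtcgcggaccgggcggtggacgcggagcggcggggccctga
Ccnb1, chr13:100786437-100786736: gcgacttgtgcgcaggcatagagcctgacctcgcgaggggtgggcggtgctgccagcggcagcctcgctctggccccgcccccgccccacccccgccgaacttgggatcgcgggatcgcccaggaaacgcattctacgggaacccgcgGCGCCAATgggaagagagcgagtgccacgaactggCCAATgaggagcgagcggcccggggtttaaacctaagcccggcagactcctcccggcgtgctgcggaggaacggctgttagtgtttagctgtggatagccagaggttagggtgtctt
Ccne1, chr7:38107441-38107740: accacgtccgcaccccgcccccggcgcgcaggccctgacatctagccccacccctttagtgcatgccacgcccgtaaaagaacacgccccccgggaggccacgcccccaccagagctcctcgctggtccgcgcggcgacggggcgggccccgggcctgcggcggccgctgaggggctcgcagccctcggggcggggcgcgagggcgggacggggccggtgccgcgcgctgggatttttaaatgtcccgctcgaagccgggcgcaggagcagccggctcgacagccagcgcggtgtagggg
Cdk2, chr10:128705002-128705301: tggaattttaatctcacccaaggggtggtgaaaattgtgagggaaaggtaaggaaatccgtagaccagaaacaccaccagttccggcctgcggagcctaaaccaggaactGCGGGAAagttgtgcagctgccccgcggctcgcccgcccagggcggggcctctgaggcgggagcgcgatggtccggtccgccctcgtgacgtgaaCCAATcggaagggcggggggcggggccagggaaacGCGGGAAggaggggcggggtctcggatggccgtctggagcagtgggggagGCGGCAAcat

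In the Cdk1 promoter the E2f4 summits lay at bases 190 and 182 in WT replicates 1 and 2 and at bases 131 and 206 in KO replicates 1 and 2. That stretch lies next to an E2F core on the reverse strand (GCGCGAA, bases 121 to 127) and takes in a TTTGAA string at bases 180 to 185. It also takes in a CCAAT box on the reverse strand at bases 171 to 175 and reaches into another at bases 203 to 207. Further before the start site lay the core GCGCCAA at bases 73 to 79 and a CCAAT box at bases 43 to 47, both on the reverse strand. A second TTTGAA string began 15 bp before the start site. In the Ccnb2 promoter the summits lay at bases 281 and 261 in WT, against 249 and 256 in KO, around a TTTGAA string at bases 255 to 260. None of the 4 E2F cores occurred in this window, and 3 CCAAT boxes began 87, 54 and 21 bp before the start site. The Ccnb1 summits lay at bases 226 and 193 in WT and at base 224 in KO replicate 2. Its window held the core GCGCCAA at bases 149 to 155, which overlaps a CCAAT box at bases 152 to 156, and a further CCAAT box at bases 184 to 188. The Ccne1 summits lay at bases 264 and 227 in WT, against 202 and 199 in KO, and none of the 6 strings occurred in its window. The Cdk2 promoter held 3 E2F cores (GCGGGAA at bases 111 to 117 and again at 241 to 247, and GCGGCAA at bases 291 to 297) and no summit in any library. Neither of the 2 Ccnd3 promoters, not shown, had a summit or an E2F core. Their only match was a CCAAT box at bases 143 to 147 of the promoter with start site 47593467. Of 32851 RefSeq promoters of the same length, 9.57% held at least 1 of the 4 cores, 17.9% held TTTGAA and 37.4% held CCAAT. A match describes the letters only.

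E2f4 peaks sat at the starts of the mitotic genes Cdk1, Ccnb1 and Ccnb2 and of the G1/S cyclin gene Ccne1, and all 4 were called in KO as well as WT liver. No summit was called within 1 kb of either end of Ccna2, Ccnd1, Ccnd2, Ccnd3, Ccne2 or Cdk2. Members with a summit within 1 kb numbered 4 of 10 in each WT library, 3 in KO replicate 1 and 4 in KO replicate 2. The share of all protein-coding genes with one was 6.62% and 4.72% in WT replicates 1 and 2 and 1.17% and 3.26% in KO replicates 1 and 2. At least 1 library had a summit at 4 members and at 7.63% of all genes, and none had one at the other 6, as at 92.4% of all genes. Both WT libraries shared a summit at 4 members and at 3.87% of all genes. Ccnb2, Ccne1 and Cdk1 were called in both KO libraries, against 1.14% of all genes, and in all 4, against 1.12%. No member was called in both WT libraries but in neither KO library, a class that held 1.08% of all genes. A site without a peak fell short of the calling threshold in that library, and E2f4 may still have been present there.

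Cdk1, the mitotic kinase (chromosome 10, 69335146 to 69352912), had a peak ranked 68 of 1791 and 94 of 1058 in WT replicates 1 and 2 and 94 of 287 and 46 of 683 in KO replicates 1 and 2, with ranks taken by the authors' −log10 q-value within each list. The −log10 q-values were 94.0 and 111 in WT, against 14.0 and 91.1 in KO, so that KO replicate 2 lay near the WT values and KO replicate 1 far below. The summits lay 61, 69, 120 and 45 bp before the start. The peak at Ccnb2, a cyclin that activates Cdk1 (chromosome 9, 70407689 to 70421554), ranked 71 and 76 in WT, against 80 and 89 in KO. Its −log10 q-values were 92.5 and 130 in WT, against 16.2 and 68.6 in KO, and its summits lay within 30 bp of the start in every library. Cdk1 and Ccnb2 had the strongest peaks of the 10 genes in each list. Their order did not hold over the libraries, since Cdk1 ranked above Ccnb2 in WT replicate 1 and KO replicate 2 and below it in the other two.

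Ccnb1, the second B cyclin gene (chromosome 13, 100778739 to 100786486), had a peak ranked 209 and 250 in WT and 176 in KO replicate 2, with −log10 q-values of 42.1, 45.1 and 37.9. It had none at its start in KO replicate 1. Ccne1, whose cyclin activates Cdk2 (chromosome 7, 38097984 to 38107490), was called in all 4 libraries, at ranks 421 and 440 in WT, against 201 and 186 in KO. Its −log10 q-values were 20.8 and 20.9 in WT, against 5.27 and 37.1 in KO, so that the KO values lay below and above both WT values. Ranks in lists of different lengths describe each list and show no change. With every list limited to its 287 strongest peaks, Ccnb1, Ccnb2 and Cdk1 were present in both WT lists, Ccnb2, Ccne1 and Cdk1 in KO replicate 1, and all 4 in KO replicate 2.

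Ccna2 and Ccnd1 had E2f4 peaks just outside the window of 1 kb. Ccna2, the S and G2 cyclin gene (chromosome 3, 36564865 to 36573038), had summits 1039 and 1013 bp inside the gene from its marked end in WT replicates 1 and 2 and 1050 bp in KO replicate 2, at ranks 299, 339 and 279 and with −log10 q-values of 31.8, 28.9 and 24.2. The marked end is the annotated end with more H3K4me2, used where the promoter table gave no strand. Both marks of Ccna2 also began inside the gene, H3K4me2 at 235 bp in WT and 271 bp in KO, and H3K27ac at 86 and 94 bp. At Ccnd1, the D cyclin gene linked to hepatocyte growth (chromosome 7, 144929931 to 144939831), the summits lay 1760 bp outside the marked end in both WT libraries and 1775 bp in KO replicate 2. They ranked 522, 387 and 460, with −log10 q-values of 14.7, 24.9 and 11.4. Neither site was called in KO replicate 1, the list of 287 peaks. Within 5 kb of an end, 6 members carried a summit in WT replicate 1 (8.5% of all genes), WT replicate 2 (5.96%) and KO replicate 2 (4.05%), and 4 did in KO replicate 1 (1.49%). The same 6 were called in both WT libraries, against 4.86% of all genes, and the 4 in both KO libraries (1.43% of all genes) were also the 4 called in every library (1.42%). One of those 4, Ccnb1, counts in KO replicate 1 only through a peak near its far end at the neighbouring gene Cenph. Ccnd2, Ccnd3, Ccne2 and Cdk2 had no summit within 5 kb in any library.

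**Figure D1:**
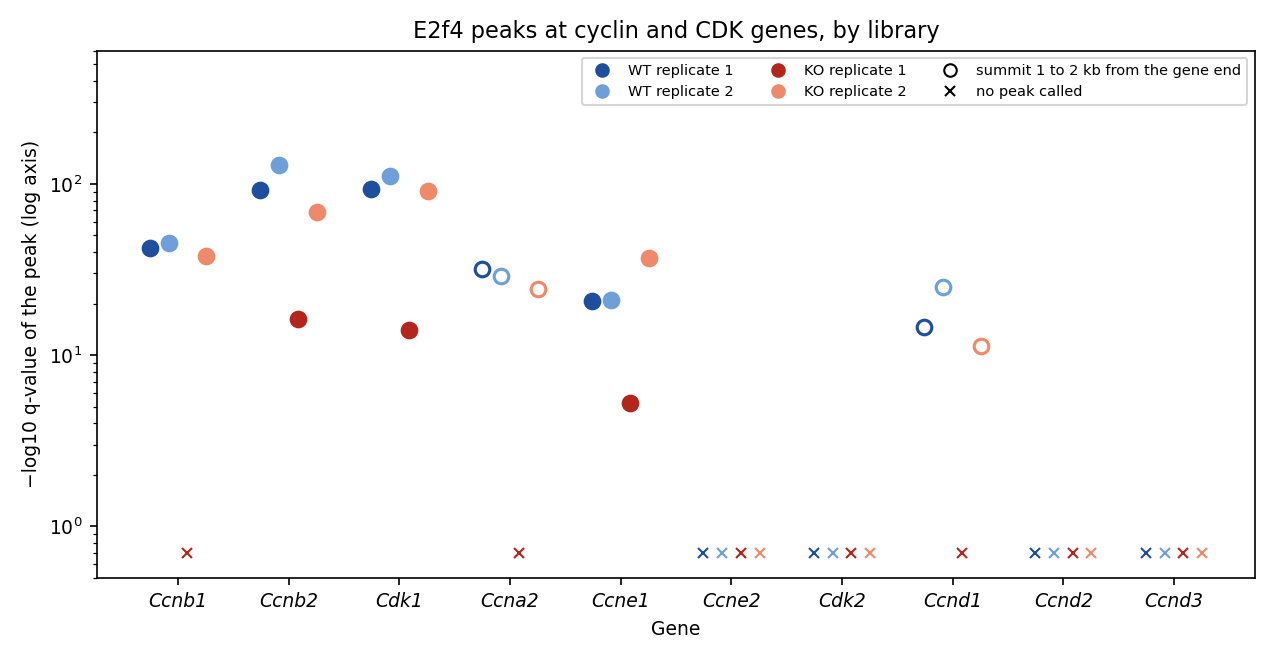
The −log10 q-value of the E2f4 peak (log axis) at each of the 10 genes in the 4 E2f4 libraries, 1 point per library, with open points for summits 1 to 2 kb from a gene end and crosses where no peak was called within 2 kb. Cdk1 and Ccnb2 lie highest and KO replicate 1 lowest where it has a peak, and Ccne2, Cdk2, Ccnd2 and Ccnd3 have no peak.

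The lists as a whole set the scale for these values. They hold no read counts, so depth is unknown. Genes with a summit within 1 kb of an end numbered 1449 and 1033 in WT, against 256 and 713 in KO, a mean of 1241 ± 294 (SD, n = 2) against 484.5 ± 323 (SD, n = 2). A two-sided exact permutation test gave p = 0.333, the lowest value that 2 libraries against 2 allow (6 assignments). KO replicate 1 held the fewest peaks and lacked 3 sites (Ccna2, Ccnb1 and Ccnd1) that the other 3 libraries held. Without it the mean number of genes in KO was 57.5% of that in WT, and without KO replicate 2 it was 20.6%, against 39.0% with both. What part the length of a list had in the missing calls was not tested.

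The E2f4 summits at the starts of Cdk1, Ccnb1, Ccnb2 and Ccne1 and those near the marked ends of Ccna2 and Ccnd1 lay in H3K4me2 regions of both genotypes. They also lay in KO H3K27ac regions and, except at Ccnb2, in WT H3K27ac regions. Of all E2f4 peaks, 81.5% and 93.1% from the WT libraries and 78.0% and 96.6% from the KO libraries had their summit in a WT H3K4me2 region. For WT H3K27ac these shares were 72.7% and 81% of the WT peaks and 61.3% and 80.8% of the KO peaks. For KO H3K27ac they were 78.6%, 89%, 74.9% and 92.7% in the same order. Each mark taken on its own held most peaks of every list, and the share in both at once was not counted. At Ccnb2 the WT list had an H3K27ac region from 72 to 434 bp inside the gene and another from 1579 to 1056 bp before the start, and all 4 summits fell between them. The KO list had an H3K27ac region from 568 bp before the start to 2183 bp inside the gene, which spanned the summits.

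**Figure D2:**
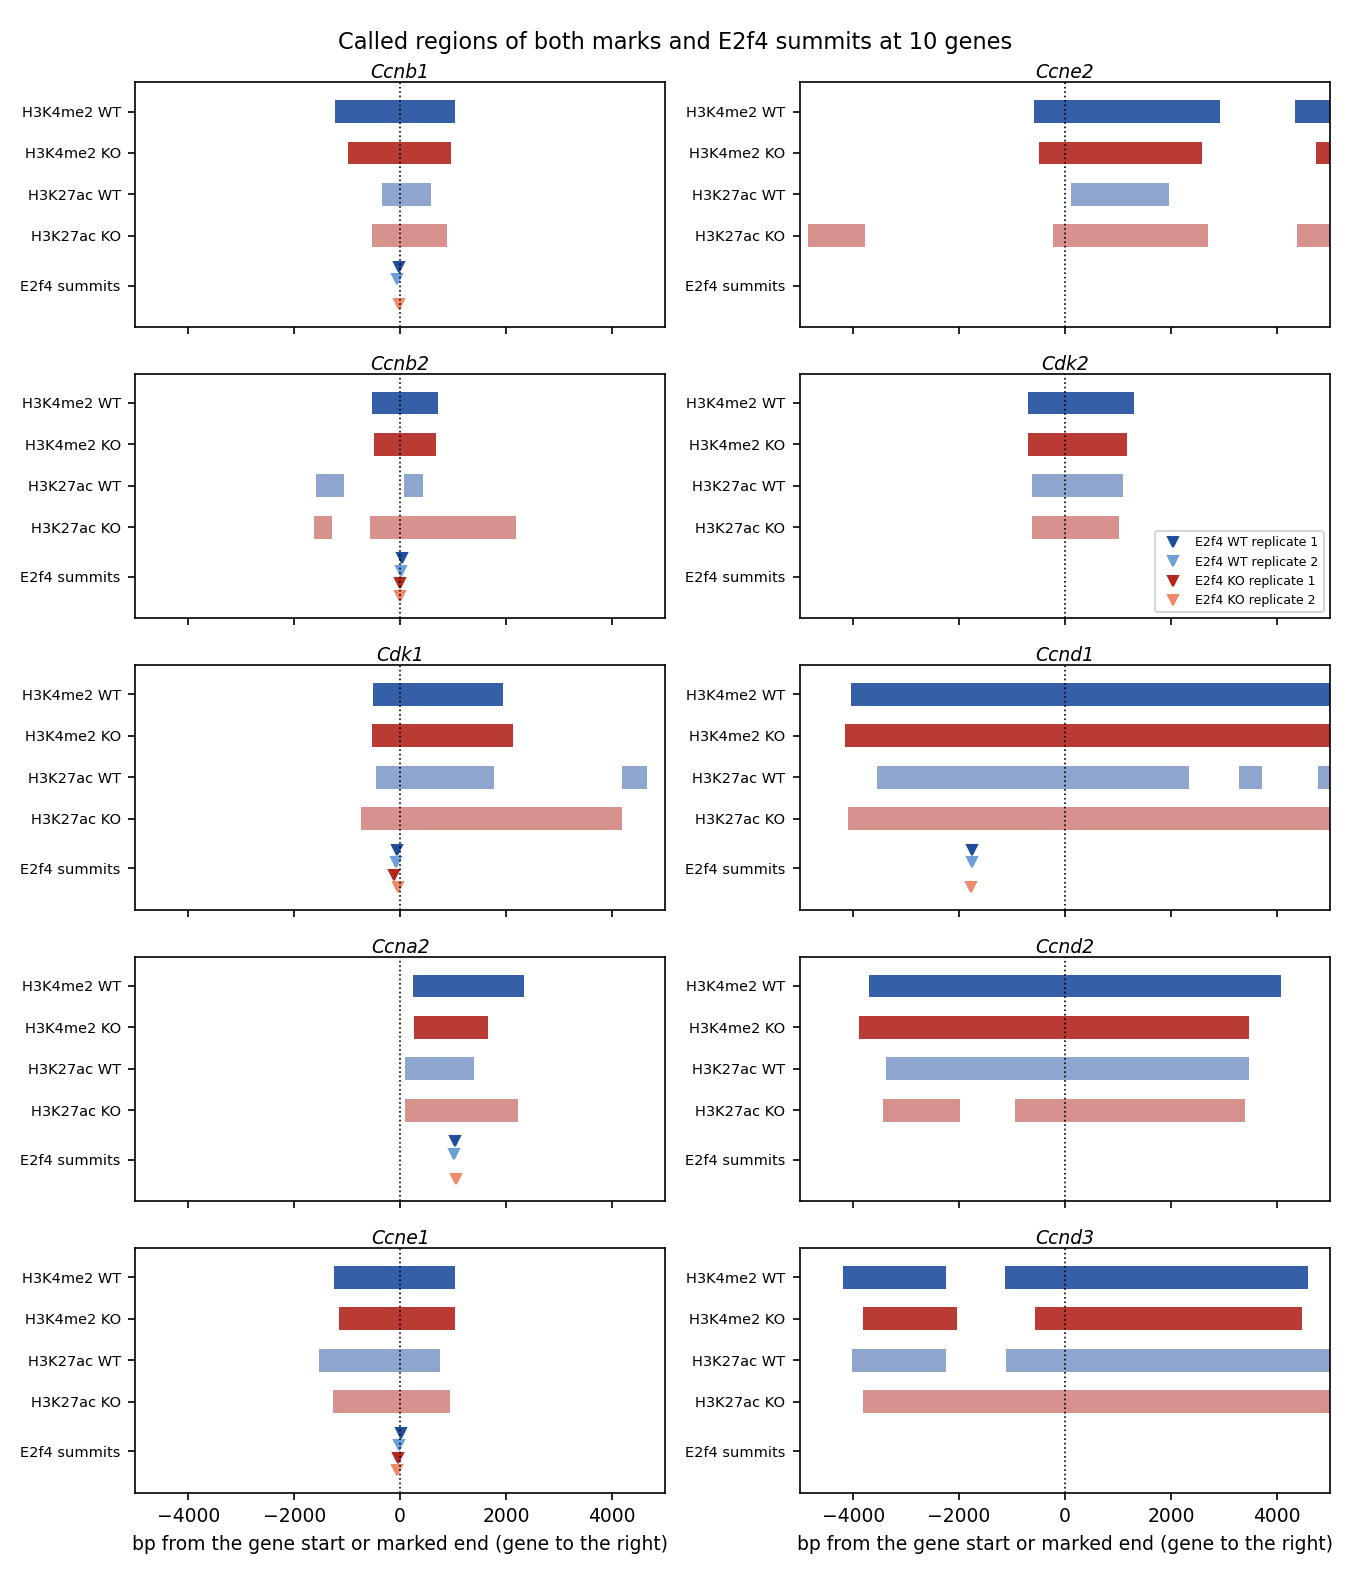
Called regions of H3K4me2 and H3K27ac (bars, WT in blue and KO in red) and E2f4 summits (triangles, by library) from 5 kb before to 5 kb inside each gene, in bp from the annotated start or marked end. At Ccnb2 the WT H3K27ac regions leave the start uncovered. The 3 D cyclin genes have the longest coverage, at each of them in part from separate regions.

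H3K27ac covered more of the surroundings of Cdk1, Ccna2, Ccnb1, Ccnb2 and Ccne2 in KO. Over 5 kb either side of the start or marked end, a window of 10001 bp in which the length under called regions was summed, 5 of the 10 genes were covered over at least 1.5 times the length in KO and none over at least 1.5 times the length in WT. Over the 13695 genes with the mark these shares were 15.1% and 13.9%. Ccnb2 was covered over 887 bp in WT and 3093 bp in KO, 3.49 times as much. Cdk1 went from 2694 to 4918 bp (1.83 times), Ccna2 from 1307 to 2141 bp (1.64 times) and Ccnb1 from 922 to 1412 bp (1.53 times). Ccne2, the other E cyclin gene (chromosome 4, 11190433 to 11204779), went from 1861 to 4644 bp (2.50 times), of which part lay in separate regions more than 3 kb on either side of its marked end. At its partner kinase gene Cdk2 (chromosome 10, 128697938 to 128705051) the length was 1713 bp in WT and 1645 bp in KO, and at Ccne1 it was 2286 and 2208 bp. Of the E cyclin genes, only Ccne2 was longer in KO over this window. Within 1 kb either side only Ccnb1 and Ccnb2 passed 1.5 times, the difference at Ccna2 was -8 bp and that at Ccne1 203 bp, and with both gene ends counted that at Cdk1 was -717 bp. There was 1 library per genotype, so none of these differences can be set against a replicate.

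The D cyclin genes carried long H3K27ac regions in both genotypes. Ccnd1 was covered over 6554 bp in WT and 9094 bp in KO. The WT length lay in separate regions, with gaps from 2347 to 3291 bp and from 3721 to 4774 bp inside the gene. A single region of the KO list spanned both gaps. It ran from 4093 bp before the marked end to 13845 bp on its other side, past the far end of the gene. Over the gene itself the mark covered 79.9% in WT and 100% in KO. Ccnd3 (chromosome 17, 47505051 to 47599689) was covered over 7895 bp in WT and 8818 bp in KO. At its inner annotated start (47593467) the lengths were 5128 and 5592 bp. Ccnd2 (chromosome 6, 127125162 to 127152188) was the member with the largest loss, from 6850 to 5792 bp (1.18 times longer in WT), where the single WT region was called as 2 regions in KO with a gap between 1990 and 950 bp before the marked end. Whole windows can hold regions of neighbours, since Rnf111 has an end within 5 kb of the Ccnb2 start, Bbs7 of the marked end of Ccna2 and Taf8 of the Ccnd3 start, as have the long noncoding RNA genes 9330179D12Rik at Ccnd2 and A630034I12Rik at Ccne2.

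**Figure D3:**
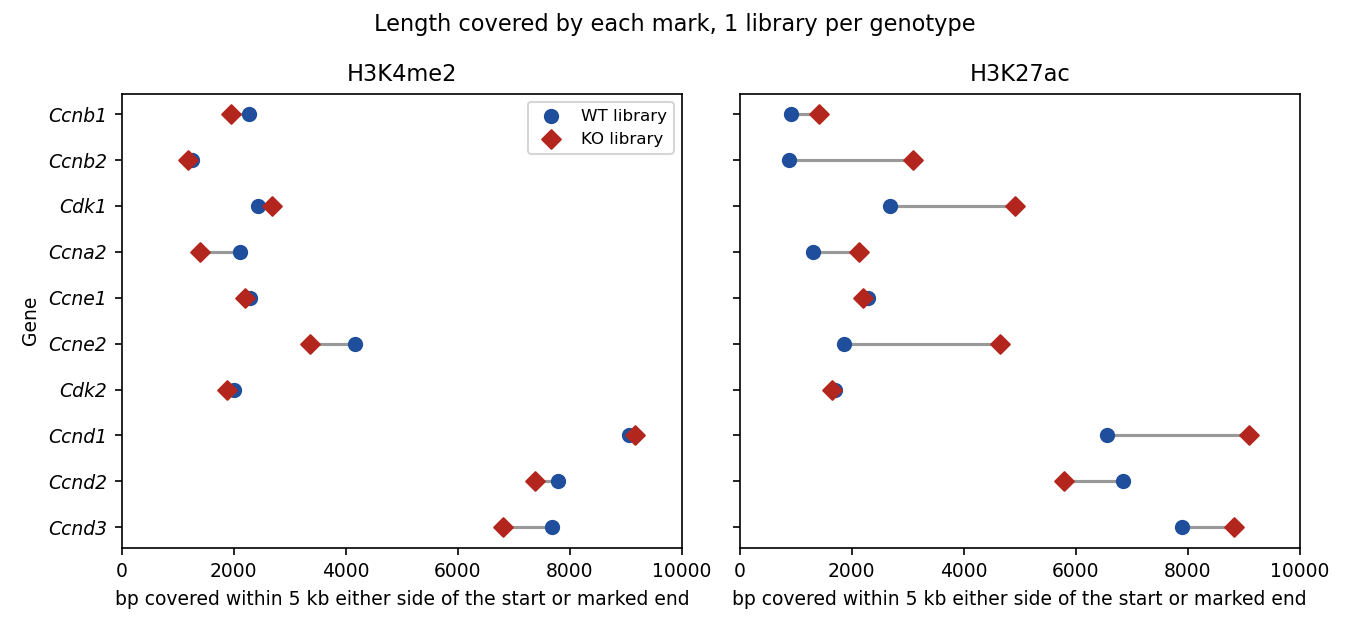
Length covered by H3K4me2 (left) and H3K27ac (right) within 5 kb either side of the start or marked end of each gene, in bp, with 1 WT library (circles) and 1 KO library (diamonds). H3K27ac is longer in KO at Ccnb2, Cdk1, Ccne2 and Ccnd1 by more than 2 kb, and the H3K4me2 lengths differ by at most 876 bp.

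The H3K27ac regions over or next to the start differed between the lists in fold and rank as well. That at Ccnb1 had the authors' fold enrichment of 3.53 and rank 34946 of 63321 in WT, against 7.61 and rank 5107 of 54652 in KO. That at Ccna2 had 4.11 and rank 23521 in WT against 7.72 and rank 6771 in KO, and that at Cdk1 had 3.74 and rank 21040 against 6.45 and rank 8727. At Ccnb2 the region inside the gene had 4.68 and rank 18018 in WT, and the KO region over the start had 5.84 and rank 8900. Higher values in KO were also found at Ccne1 (4.80 and 15182, then 5.89 and 10475) and Ccne2 (5.08 and 16145, then 5.52 and 11654). At Ccnd1 the WT region over the marked end had 5.38 and rank 13606, and the single KO region had 10.8 and rank 1123. That KO region also spanned a WT region beginning 4774 bp inside the gene, which had 9.74 and rank 1076. The Ccnd1 values therefore do not compare the same stretch. At Cdk2 (6.54 and 6573, then 6.91 and 7276) the fold was higher in KO and the rank lower. At Ccnd2 (4.87 and 16129, then 4.97 and 14578) both lists had near values, and at Ccnd3 (7.37 and 3722, then 6.86 and 7039) the WT region stood higher. The KO region at Ccnd3 also took in most of a separate WT region from 4023 to 2250 bp before the start. That WT region had 8.64 and rank 1534, so the Ccnd3 values do not compare the same stretch either. These values belong to each peak and its list. The genome-wide length under H3K27ac was shorter in KO, 104 Mb against 113 Mb in WT, with mean authors' folds of 4.44 and 4.32 per region, while 7 of the 10 genes were longer in KO, against 52.8% of all genes with the mark.

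H3K4me2 lengths differed less at the same genes. It was shorter in KO at 8 of the 10 and longer at 2 (Cdk1 and Ccnd1), whereas over the 16052 genes with the mark 60.3% were longer in KO. With both gene ends counted the sign turned at Cdk1 (-674 bp), Ccnd3 (389 bp) and Cdk2 (674 bp). Only Ccna2 passed 1.5 times, with 2112 bp in WT and 1393 bp in KO (1.52 times longer in WT), against 6.32% of all genes in that direction and 12.6% in the other. The next largest losses in proportion were at Ccne2, from 4163 to 3355 bp, and Ccnb1, from 2273 to 1946 bp. Cdk1 had 2440 and 2680 bp, Ccnb2 1248 and 1188 bp, Ccne1 2287 and 2193 bp, and Cdk2 2002 and 1875 bp. The D cyclin genes had the longest coverage here too, with 9047 and 9159 bp at Ccnd1, 7780 and 7378 bp at Ccnd2 and 7678 and 6802 bp at Ccnd3. At the inner annotated start of Ccnd3 (47593467) H3K4me2 was instead longer in KO, with 4870 bp in WT and 5421 bp in KO. Ccnb2 had the shortest coverage in both libraries. At Cdk2 and Ccne1, where both marks kept nearly the same length, the H3K4me2 regions over the start were among the strongest of their lists, at ranks 2560 and 697 of 66832 in WT and 306 and 213 of 73042 in KO. High ranks were not particular to them. Ccne2 had ranks 2599 in WT and 2015 in KO, and Ccnb1 2382 and 4334.

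The covered lengths moved in opposite directions at 5 genes (Ccna2, Ccnb1, Ccnb2, Ccnd3 and Ccne2), with H3K4me2 shorter and H3K27ac longer in KO. This class held 21.4% of the 13521 genes with both marks. Only the length fell at these genes other than Ccnb1, since their H3K4me2 fold was higher in KO. Of the 5, Ccna2 and Ccnd3 left the class within 1 kb. There the H3K27ac difference was -8 bp at Ccna2 and 0 bp at Ccnd3, which was covered over 2001 bp in both genotypes. Ccnd3 also left the class with both gene ends counted, where both marks were longer in KO. Both marks were longer at Ccnd1 and Cdk1 and both shorter at Ccnd2, Ccne1 and Cdk2. The median difference over the 10 genes, KO minus WT, was 878.5 bp for H3K27ac and -227 bp for H3K4me2, beside 38 and 127 bp over all genes with each mark. Non-member genes with an E2f4 summit in both WT libraries leaned the same way, with a median of 281 bp for H3K27ac over 836 genes and -51.5 bp for H3K4me2 over 842. Of those 836 genes, 23.7% were at least 1.5 times longer for H3K27ac in KO and 3.47% in WT, against 14.6% and 15.2% of the 12041 non-member genes with no summit. For H3K4me2 the shares were 2.73% in KO and 3.33% in WT of the 842 genes, against 13.8% and 6.73% of the 14379 without a summit. Among the members, Ccna2 and Ccne2 passed 1.5 times in KO without a summit within 1 kb, and Ccne1 had a summit and did not pass. Ccna2 missed that window narrowly, with summits 1039 and 1013 bp from its marked end in WT and 1050 bp in KO replicate 2.

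**Figure D4:**
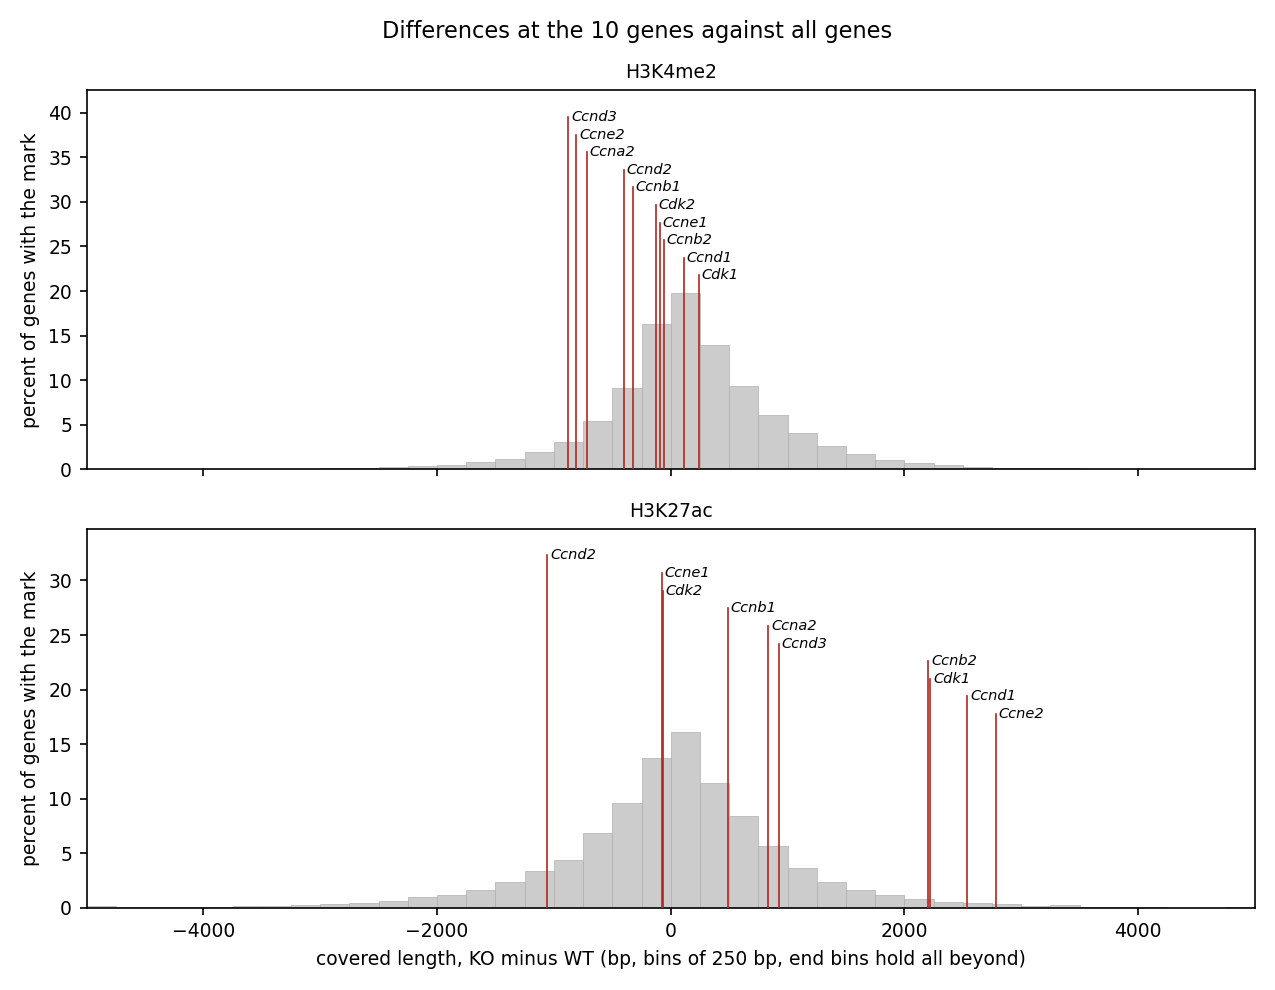
Distribution over all genes with the mark of the covered length in KO minus that in WT (grey bars, percent of genes per 250 bp), with the 10 genes as labelled lines, for H3K4me2 (top) and H3K27ac (bottom). For H3K4me2 the 10 lines lie between -876 and 240 bp, and for H3K27ac 4 of them (Ccnb2, Cdk1, Ccnd1 and Ccne2) lie above 2 kb.

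Markers of other cell types than hepatocytes were also marked in these livers, although hepatocytes had been isolated according to the protocol, and their lengths differed between the genotypes. All 8 hepatocyte markers carried both marks in both genotypes, with summed lengths of 59810 bp in WT and 56900 bp in KO for H3K4me2 and of 60574 and 65178 bp for H3K27ac. Alb, Apoa1, Ttr and Tat filled the whole window of 10001 bp for H3K27ac in both genotypes, as Apoa1 and Ttr did for H3K4me2. A longer stretch in KO could not show at these. Of the 10 lymphocyte markers 9 were shorter in KO for H3K4me2, summed 36583 bp in WT and 8896 bp in KO, with Cd2, Cd3e, Cd3g and Cd79b at 0 in KO only. Their H3K27ac sums were 13359 and 12882 bp, with Cd2 and Cd3e at 0 in both, Ms4a1 at 0 in WT and Cd79b at 0 in KO. Most of both sums came from Lck (7275 bp in WT and 7083 bp in KO) and Ptprc (2591 and 4019 bp). Of the 10 markers 3 were longer in KO for H3K27ac and 4 were shorter, among them Cd3d (1873 to 627 bp) and Cd3g (797 to 258 bp). Of the 8 endothelial markers 7 were longer in KO for H3K4me2 (24520 to 35579 bp, Vwf at 0 in WT) and 6 were shorter for H3K27ac (39583 to 28981 bp, Vwf at 0 in both). All 6 stellate and fibroblast markers were longer in KO for H3K4me2 (7253 to 15446 bp) and 5 were shorter for H3K27ac (11687 to 5818 bp, Col1a2 at 0 in both and Col1a1 in KO). The 6 macrophage markers summed to 14692 and 18131 bp for H3K4me2 (Timd4 and Marco at 0 in WT) and to 22434 and 19762 bp for H3K27ac (Marco at 0 in WT). Of the 5 cholangiocyte markers, Krt19 and Krt7 were at 0 for both marks, with sums of 6007 and 5056 bp for H3K4me2 and of 1864 and 0 bp for H3K27ac. None of these 43 markers had an E2f4 summit within 1 kb of an end in any library, and within 5 kb the macrophage marker Cd68 had one in 3 libraries. Fewer cells of a type and less of a mark per cell cannot be told apart here, and the part of other cells in the differences at the cyclin genes was not tested.

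Among other genes of the pathway, summits within 1 kb were called in both WT libraries at 2 of 15 further cyclin genes, at none of 16 further kinase genes and at 5 of 9 genes of CDK subunits and cyclin destruction, beside 3.87% of all genes. Both cyclin genes were called in all 4 libraries. These were Ccnf, which encodes an F-box protein (ranks 866 and 905 in WT, 214 and 674 in KO), and Ccng2, an atypical cyclin linked to cell cycle arrest (ranks 134 and 203 in WT, 157 and 166 in KO). No further kinase gene was called in more than 1 library. Cdk4, the D cyclin partner kinase, had 1 in WT replicate 1 at rank 663 of 1791, Cdk19 had 1 there at rank 655, and Cdk6, the other D cyclin kinase, had none. Cks1b and Cks2 encode small proteins that bind cyclin-dependent kinases. Cks1b ranked 29 and 28 in WT, against 43 and 73 in KO, above all 10 members in 3 of the 4 lists (all but KO replicate 2), at a promoter that it shares with Shc1. Cks2 ranked 614 and 914 in WT and 350 in KO replicate 2, and had no peak in KO replicate 1. Among the genes of cyclin destruction, Fbxo5, an inhibitor of the anaphase-promoting complex, was called in all 4 libraries (ranks 44, 133, 57 and 103), as was its ubiquitin-conjugating enzyme gene Ube2c (ranks 169, 576, 234 and 328). Cdc20, an activator of that complex, was called in both WT libraries (ranks 440 and 339) and in KO replicate 2 (rank 414). The other 4 genes of this list, Mnat1, Skp2, Fbxw7 and Fzr1, had no summit. Of all 40 genes, 9 and 7 were called in WT replicates 1 and 2 and 5 and 7 in KO replicates 1 and 2.

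Of these 40 genes, 38 carried H3K27ac, which was at least 1.5 times longer in KO at 8 and in WT at 3, beside 15.1% and 13.9% of all genes with the mark. The median difference was 190.5 bp, and whether it differed from that of the members was not tested. Fbxo5 went from 1844 to 3799 bp, Cdc20 from 1862 to 3281 bp and Ccnf from 3105 to 5131 bp, while Cdk4 had 4198 bp in WT and 3165 bp in KO and Cdk6 3968 and 4199 bp. Cks1b had 5823 and 6614 bp and Cks2 7363 and 7820 bp. H3K4me2 was at least 1.5 times longer in KO at 2 of the 40 and in WT at 1 (Cdc20, from 2601 to 1421 bp), beside 12.6% and 6.32% of all genes. It was longer in KO by any amount at 25 and shorter at 15, with a median of 149.5 bp, where the members had 2 longer and 8 shorter and a median of -227 bp.

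The genes whose pattern over the 8 lists was most like that of Cdk1, the member with the best mean E2f4 rank, were Ccnf, Rad54b and Rcc1. Likeness was the mean absolute difference of percentiles among all genes in the 8 lists, 2.38 percentile points for Ccnf, 2.53 for Rad54b, a recombination gene, and 2.76 for Rcc1, a chromatin-bound regulator of the GTPase Ran. Since most genes have no E2f4 peak, all genes with one lie close together on this scale, and Ccnf, with ranks of 866 and 905 in WT, was matched to Cdk1 mainly by its marks. Rcc1 ranked 62 and 11 in WT, against 44 and 100 in KO, with H3K27ac over 2639 bp in WT and 4569 bp in KO. Rad54b ranked 122 and 56 in WT, against 49 and 79 in KO, with 3694 and 4198 bp.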

How the data were processed

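ChIP-seq was done on 8 immunoprecipitations (E2f4 with 2 libraries per genotype, H3K4me2 and H3K27ac with 1 each), and the 8 inputs were not used here. The submitters' processing notes name build mm10 and the tools MACS2 2.0.10.20131216, HOMER, Bowtie2 2.2.3 and Picard, without roles. The authors deposited 1 peak list per library, so peaks were called per library, and the use of the inputs in calling is not given in these sources. For each peak the deposited lists hold the fold enrichment over background (a ratio), the −log10 p-value and −log10 q-value (lowest q-value entry 1.33 for E2f4, 1.00 for the marks), and for E2f4 the summit offset. The score column, as deposited, was left out of every step. Fold and q-value only describe, rank or filter peaks within a list.

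Gene ends came from a RefSeq table of GRCm38.p6, whose coordinates are those of mm10, and the strand and the promoter sequences from the RefSeq promoter table (17492 of 21887 genes). For the other genes the end with more H3K4me2 within 2000 bp, over both genotypes, served as the start, with H3K27ac deciding ties and the lower end used where neither decided (1157 genes). The outermost annotated start was used. An E2f4 summit counted within 1000 bp of either end, and covered length was summed over 5000 bp either side of the start. A gene passed the fold where the longer length was at least 1.5 times the shorter, a length against 0 included. Exons and introns were not analysed here.

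The only test was an exact permutation test over libraries. The members and the gene lists were chosen with earlier results of these data known, and no list was tested. All 10 members were named, with further genes of the fixed pathway lists that had a summit in at least 2 libraries, Cdk4, Cdk6, Cks1b and Cks2 always, and the 3 genes most like the member called in the most libraries (Ccnb2, Ccne1 and Cdk1 tied, and the best mean rank chose Cdk1). Cdk19, Cenph and the genes named for their marks were picked once their values were known. Alternatives were other windows, stricter q-values, lists of equal length, both gene ends and libraries left out. The counting functions were tested on simulated data. Python 3.11.15, numpy 2.4.6 and pandas 2.3.3 were used. The values of 1 marker gene are not reported here.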

Additional observations from a re-analysis of the deposited data

How the results depend on the processing

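The members with an E2f4 summit in both WT libraries (4), in at least 1 KO library (4) and in both KO libraries (3) kept within 1.5 times these counts under every alternative run. Within 5000 bp they were 6, 6 and 4, and with −log10 q-values no lower than 10 they were 4, 4 and 2. With 1 library left out they ranged from 4 to 4, from 3 to 4 and from 3 to 4. The number of genes with a summit in KO, 39.0% of that in WT, ranged from 38.3 to 47.5% under the other windows and q-values, and from 20.6 to 57.5% with 1 library left out. With replicate number as a block, the value was 39.0% with an exact permutation p of 0.5, the smallest that pairing allows. The labels do not say that the numbers mark shared animals or days. The deviations of same-numbered WT and KO libraries in summit presence correlated at r = 0.22 over the 1669 genes with any summit. This value does not compare the libraries themselves. Genes are not replicates.

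The median difference in covered length over the members was -227 bp for H3K4me2. It was -20 bp within 1000 bp, -149 bp within 10000 bp, -137.5 bp with −log10 q-values no lower than 5 and -248 bp over both gene ends. For H3K27ac it was 878.5 bp, and under the same alternatives 101.5, 913.5, 1245 and 1063 bp. Within 1000 bp, 0 members were 1.5 times longer in WT for H3K4me2, and 2 were 1.5 times longer in KO for H3K27ac. With −log10 q-values no lower than 5, 1 member (Ccnd2) was 1.5 times longer in WT for H3K27ac, with a difference of -2507 bp. The H3K27ac difference reversed at Ccna2 (-8 bp) and Ccne1 (203 bp) within 1000 bp and at Cdk1 (-717 bp) over both gene ends. The H3K4me2 difference reversed over both gene ends at Cdk1 (-674 bp), Ccnd3 (389 bp) and Cdk2 (674 bp). This alternative adds only the window at the far end. Equal list lengths moved none of these counts or medians. Depth is unknown, and the marks have no replicate, so the size of a chance difference in covered length is not known.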

Other observations

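An E2f4 site beside Ccnb1 belongs by position to Cenph, which encodes a kinetochore protein. Its summits lay 2870 and 2883 bp beyond the far end of Ccnb1 in WT replicates 1 and 2 and 2880 and 2879 bp in KO replicates 1 and 2, within 1 kb of an end of Cenph. Its ranks were 314 and 159 in the WT lists of replicates 1 and 2, and 107 and 140 in those of KO. It was thus called in KO replicate 1, where the Ccnb1 start was not, and it ranked above the Ccnb1 start in WT replicate 2 and KO replicate 2 and below it in WT replicate 1. The summits lay in an H3K4me2 region in both genotypes and in an H3K27ac region in KO only.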
